A study of Mus musculus with 8 samples.

Results

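The response to tamoxifen was examined in control bone marrow derived macrophages that carry the inducible recombinase ERT2 Cre but no floxed Thoc5 allele. The members are the 2 arrays of the group ERT2 Cre with tamoxifen and the 2 arrays of the group ERT2 Cre no tamoxifen, chosen by genotype and treatment, so 4 of the 8 arrays of the series. The other 4 arrays hold the same treatments in ERT2 Cre Thoc5 (flox/flox) cells, where Cre removes Thoc5, a subunit of the THO complex of mRNA export, and they served only for comparison. Each array set cytoplasmic RNA from day 3 under the growth factor CSF-1 against cytoplasmic RNA from day 0 of the same genotype and experiment. All groups carried ERT2 Cre and came from a mixed background, C57BL/6 x B6:129 Ola. Tamoxifen was present only on the day 3 side of the treated group. The animals' age, the promoter that drives Cre, the form and dose of tamoxifen and any pooling of mice are not given in the sources used here. Each group holds 1 array from each of 2 biological experiments. Experiment 2 was hybridised with the dyes turned round and on another slide, so experiment, dye direction and slide cannot be told apart.

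ERT2 Cre is a fusion of the phage recombinase Cre with a mutated ligand-binding domain of the estrogen receptor. It is held in the cytoplasm by HSP90 until tamoxifen binds and lets it enter the nucleus, where it recombines loxP sites. Tamoxifen itself acts on the estrogen receptor, on enzymes of cholesterol synthesis and on lysosomes of other cell types, and nuclear Cre can cut genomic sequences that resemble loxP and set off a DNA damage response. Cells with Cre and without a floxed allele are therefore the usual control. As no cells without Cre were given tamoxifen in the arrays described here, the drug and the activated recombinase cannot be told apart. During the first days under CSF-1, marrow precursors divide and then slow as they mature. Genes of G2 and mitosis are switched on late in the cell cycle by the MuvB core with B-MYB and FOXM1 and are silenced in resting cells by the DREAM complex, which binds an element called CHR in their promoters.

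Genes of mitosis led the values that were higher with tamoxifen, and the promoters of the 4 genes of the G2 and mitosis list with the smallest p are shown for that reason. They are RefSeq windows on GRCm38.p6 from 250 bases before the start of the gene to 30 bases after it, given 5′ to 3′ on the strand of the gene. Capitals mark the letters TTTGAA of the CHR element or their reverse complement TTCAAA, and CCAAT, the NF-Y box, or its reverse complement ATTGG. Ube2c lies at chr2:164769679-164769958 on the plus strand, Ccnb2 at chr9:70421525-70421804 on the minus strand, Cenpa at chr5:30666636-30666915 on the plus strand and Kif11 at chr19:37376132-37376411 on the plus strand.
Ube2c: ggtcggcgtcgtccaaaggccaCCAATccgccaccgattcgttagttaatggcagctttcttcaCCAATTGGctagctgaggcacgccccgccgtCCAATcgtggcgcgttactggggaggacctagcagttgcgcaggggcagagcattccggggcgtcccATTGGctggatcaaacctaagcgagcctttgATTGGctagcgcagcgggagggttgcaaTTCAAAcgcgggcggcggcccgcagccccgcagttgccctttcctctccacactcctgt
Ccnb2: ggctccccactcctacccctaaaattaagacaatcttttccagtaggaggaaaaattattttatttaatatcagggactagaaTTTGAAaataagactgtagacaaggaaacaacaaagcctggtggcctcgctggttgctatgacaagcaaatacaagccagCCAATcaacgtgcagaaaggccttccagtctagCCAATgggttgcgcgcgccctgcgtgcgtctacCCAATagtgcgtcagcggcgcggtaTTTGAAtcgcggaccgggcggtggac
Cenpa: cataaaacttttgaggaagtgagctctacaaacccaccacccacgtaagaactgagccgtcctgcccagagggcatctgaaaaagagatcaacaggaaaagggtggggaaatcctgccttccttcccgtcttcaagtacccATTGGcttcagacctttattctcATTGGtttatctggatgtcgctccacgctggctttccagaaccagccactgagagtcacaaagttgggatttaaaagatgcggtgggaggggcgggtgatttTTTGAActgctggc
Kif11: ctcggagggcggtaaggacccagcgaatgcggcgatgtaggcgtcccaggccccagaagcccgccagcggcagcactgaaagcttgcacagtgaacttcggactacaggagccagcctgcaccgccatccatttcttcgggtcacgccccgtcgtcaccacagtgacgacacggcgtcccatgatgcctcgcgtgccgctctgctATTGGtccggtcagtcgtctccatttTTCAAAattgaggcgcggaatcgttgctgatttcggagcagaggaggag

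The G2 and mitosis list had 38 genes on the arrays, and 32 of them had a promoter in the RefSeq table by symbol. In the full windows, which reach 50 bases past the start, 24 of these 32 (75%) held the CHR letters and 25 (78.1%) held CCAAT, on either strand. Among the 10964 genes tested that had a promoter there, 15.1% held the CHR letters and 42.6% held CCAAT. Both motifs were present in 21 of the 32 promoters (65.6%) and in 6.19% of the promoters of the genes tested. A match of letters describes the sequence and does not show that a factor was bound.

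The arrays were first set against their labels. Thoc5, whose probe lies at chr11:4828807-4828866 on mm9, had log2 day 3/day 0 ratios of -0.40 and -0.28 without tamoxifen and of -0.21 and -0.15 with it, in experiments 1 and 2. The difference was 0.16 ± 0.10 (SE) on the log2 scale (limma adjusted p = 1.00), whereas in flox cells Thoc5 fell by 2.27 with tamoxifen (limma adjusted p = 0.000733). Of 29 measured macrophage markers, 27 were well above background on both day 3 arrays of each control group, and Csf1r, the CSF-1 receptor, had normalised day 3 intensities of 17.83 and 17.70 without and 17.83 and 17.55 with tamoxifen on the log2 scale. The median day 3/day 0 ratio of the markers was 0.47 and -0.15 without and 0.26 and -0.13 with tamoxifen, so it was below 0 in experiment 2. Genes of other cell types were above background too, among them 23 of 30 neutrophil genes on both arrays of each group. Taken gene by gene (genes are no replicates), the paired arrays of each control group had ratios that correlated at 0.78 without tamoxifen and 0.88 with it, below the 0.93 and 0.92 of the flox groups. The share of probes well above background ranged from 51.3% to 58.1% over the channels.

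Over all genes, no change passed the threshold in control cells with the fit used here, and this call depended on the processing. Of 18038 genes tested, 0 were called at an adjusted p under 0.05 (limma, Benjamini-Hochberg), and 0 under 0.1. At an unadjusted p under 0.05 there were 1002 genes, or 5.55%, 565 of them higher (3.13%) and 437 lower (2.42%) with tamoxifen, and under 0.01 there were 264, or 1.46%. The lowest adjusted p was 0.165. When arrays that share day 0 RNA were joined by a random block in place of the experiment term, 34 genes were called, and with median centring in place of loess 26. Of the 24 leading genes described below, 21 passed in at least 1 alternative. They were chosen for the smallest p in these same arrays, so that count largely follows from the choice and is a description. In flox cells the same contrast called 1623 genes, or 9% (4.84% higher and 4.16% lower). All values for single genes below are therefore given as values in these 4 arrays, with unadjusted p where stated, and not as called changes. The design text calls the experiments biological and does not say whether their animals differed, so p-values measure only the spread between these samples.

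The experiments shared little of the tamoxifen difference. Across genes the difference in experiment 1 correlated with that in experiment 2 at r = 0.18, against r = 0.81 in flox cells. The differences had an SD over genes of 0.21 in experiment 1 and 0.26 in experiment 2 on the log2 scale. In both experiments 5196 genes were higher (28.8%) and 4245 were lower (23.5%). Only 8 genes (0.0444%) were at least 2-fold apart in the same direction in both experiments. They are Chac1, which was higher, and Cd83, Mex3b, N4bp3, Plac8, Tgm2, Thbs1 and Vegfa, which were lower.

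**Figure D1:**
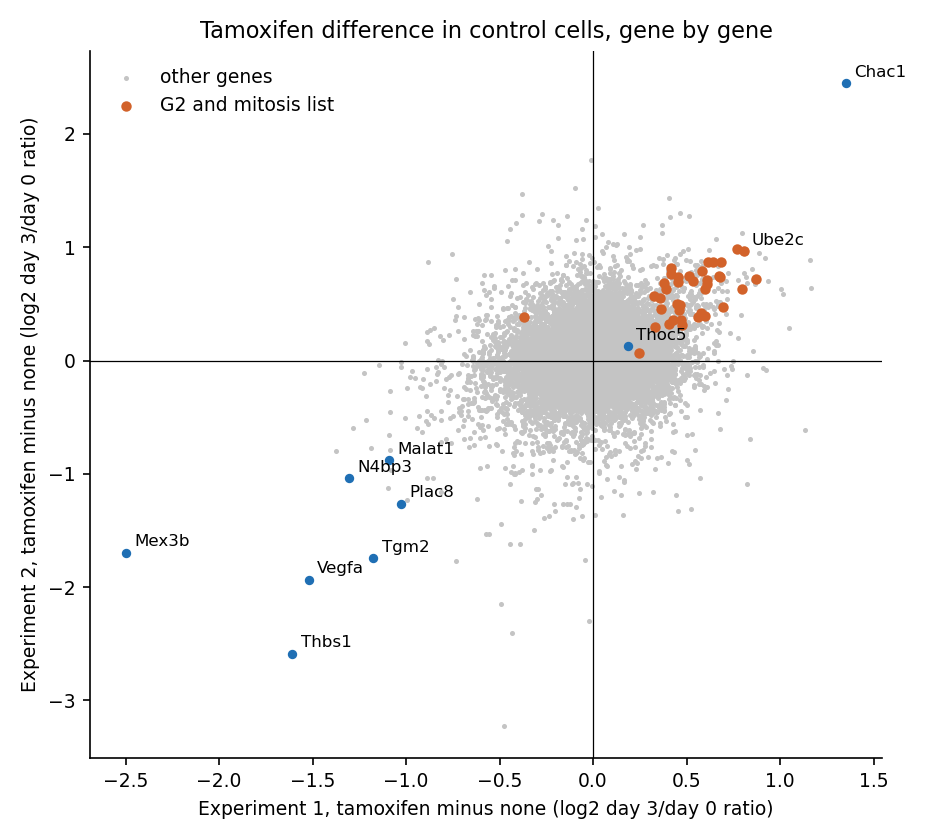
Tamoxifen minus no tamoxifen in control cells for each gene, on the log2 scale of day 3/day 0 ratios, with experiment 1 on the x axis and experiment 2 on the y axis. Grey points are genes outside the G2 and mitosis list, orange points are its 38 genes and blue points are other named genes; 37 of the 38 orange points lie above 0 on both axes, while the grey cloud shows little relation (r = 0.18 over all genes).

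The day 0 channel measures what differs without any drug, since the same day 0 RNA lay on both arrays of an experiment. There the difference between the arrays of a pair had an SD over genes of 0.14 in experiment 1 and 0.15 in experiment 2, against 0.25 and 0.29 in the day 3 channel. At an unadjusted p under 0.05 there were 126 genes in the day 0 channel, or 0.699%, and 1415 in the day 3 channel, or 7.84% (4.01% higher and 3.84% lower). The fit takes its spread from all 8 arrays, so it includes differences between day 0 RNAs that a pair does not hold. The day 0 count is therefore no calibrated baseline for the day 3 count. Neither channel gave a call at an adjusted p under 0.05, and the day 3 channel gave 15 under 0.1, or 0.0832% (limma). Differences of the 2 channels correlated across genes at 0.55 and 0.46 in the experiments, so part of the spread in the day 3 channel is common to both channels of an array.

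**Figure D2:**
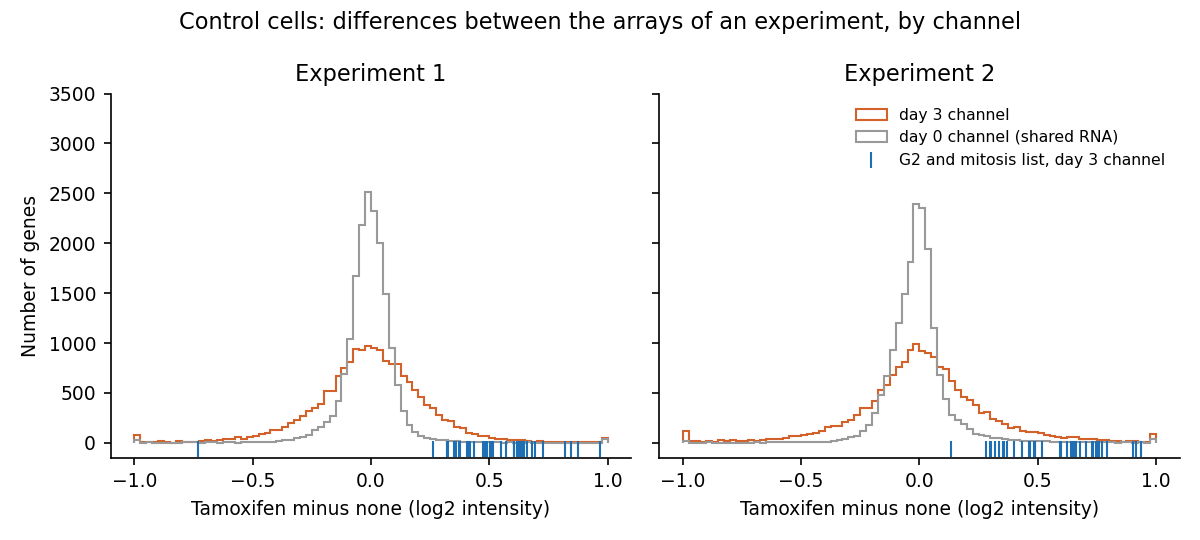
Number of genes by the difference between tamoxifen and no tamoxifen in log2 intensity, for each experiment, in the day 3 channel (orange) and the day 0 channel with shared RNA (grey); values past 1 in size are drawn at 1. Blue ticks are the genes of the G2 and mitosis list in the day 3 channel, which sit to the right of 0 with 1 exception in experiment 1 (Cenpf), and the day 3 outline is wider than the day 0 outline (SD 0.25 against 0.14 in experiment 1).

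Genes of G2 and mitosis stood higher with tamoxifen as a group. All 38 measured members had a fitted value above 0, 37 were higher in both experiments, and 35 were higher at an unadjusted p under 0.05, where 3.13% of all genes were; 0 were lower. Their median difference was 0.58 (0.49 in experiment 1 and 0.63 in experiment 2), against 0.01 over all genes. In 34 of the 38, both ratios with tamoxifen lay above both without, as in 11.6% of all genes. None passed at an adjusted p under 0.05, with adjusted p between 0.218 and 1.00 (limma). With that random block in place of the experiment term 5 of the 38 were called, beside 34 of all 18038 genes. They were Ube2c, Cdc20, Cenpa, Kif11 and Nusap1. With median centring 2 of the 38 were called (Ube2c and Ccnb2), beside 26 of all genes. Of the 38 lists described, this one had the highest median, and the median of the same genes in the shared day 0 channel was 0.01 in experiment 1 and -0.02 in experiment 2. Without the tamoxifen array of experiment 2 the count of 35 was 18, and without the untreated array of experiment 1 it was 23.

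Nearly all of these genes were lower at day 3 than at day 0 on every control array, with Cenpa on the tamoxifen array of experiment 2 as the exception, and the treatments differed in how far. The median ratio over the list was -1.70 and -1.62 without tamoxifen and -1.19 and -1.07 with it, on the log2 scale in experiments 1 and 2. The summed day 3 intensity of the list was 170989 and 156235 without tamoxifen and 251156 and 239063 with it. So both treated arrays were above both untreated arrays in the day 3 channel too. As bulk RNA was measured, more cells in mitosis and more of these RNAs per cell cannot be told apart.

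Ube2c encodes the ubiquitin-conjugating enzyme that works with the anaphase-promoting complex. Its log2 day 3/day 0 ratios were -1.57 and -1.50 without tamoxifen and -0.76 and -0.53 with it, in experiments 1 and 2. The ratios of the treatments did not overlap, and tamoxifen stood 0.89 ± 0.10 (SE) higher, or 1.85-fold (limma adjusted p = 0.218, unadjusted p = 9.68e-05). A second Ube2c probe gave 0.91. Gm8956, annotated as similar to Ube2c, stood 0.92 higher, and as a near-identical copy its signal may come from Ube2c RNA, so it is uncertain.

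Ccnb2 encodes cyclin B2, a partner of CDK1 at entry into mitosis. Its ratios were -1.24 and -1.69 without tamoxifen and -0.47 and -0.70 with it. The difference was 0.88 ± 0.13, with 0.77 and 0.98 in the experiments. Ccnb1, encoding cyclin B1, stood 0.62 ± 0.14 higher, and Cdk1 itself 0.40 ± 0.12 higher. Both were higher in both experiments.

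Cenpa, the histone H3 variant of centromeres, had ratios of -0.69 and -0.79 without tamoxifen and -0.05 and 0.09 with it, so its day 3 level with the drug was near that of day 0. Its difference was 0.76 ± 0.12. Kif11, the motor that pushes spindle poles apart, had ratios of -1.95 and -1.86 without and -1.34 and -1.15 with tamoxifen, 0.66 ± 0.11 higher. Cdc20, the activator of the anaphase-promoting complex, stood 0.78 ± 0.14 higher, Birc5 (survivin) 0.71 ± 0.15 higher, and Plk1, a mitotic kinase, 0.46 ± 0.09 higher, each in both experiments. The proliferation marker Mki67 stood 0.57 ± 0.13 higher, from ratios of -2.78 and -2.60 to ratios of -2.32 and -1.91.

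The transcription factor of this programme, Foxm1, stood 0.50 ± 0.12 higher, with 0.58 and 0.42 in the experiments. The 3 list members that missed an unadjusted p of 0.05 were Bub1 at 0.53 ± 0.23, Bub3 at 0.16 ± 0.10 and Cenpf at 0.01 ± 0.18. Cenpf differed in sign between the experiments (-0.37 and 0.38) and was well above background on 1 of 2 day 3 arrays in each control group.

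Of the 12 genes that the naming rule placed first among the higher values, 3 belong to that list (Ube2c, Ccnb2 and Cenpa). Cdkn3, a phosphatase of CDK1, stood 0.96 ± 0.14 higher, with ratios of -1.28 and -1.47 without and -0.48 and -0.34 with tamoxifen. Sapcd2 stood 0.91 ± 0.10 higher, Cep55, needed for the final cut of dividing cells, 0.78 ± 0.13, Troap 0.77 ± 0.12, Fam83d 0.66 ± 0.10 and Gtse1 0.65 ± 0.10. Cdkn2c, the CDK4 and CDK6 inhibitor p18, stood 0.69 ± 0.10 higher. A second Cep55 probe gave 0.24. The adjusted p of these 12 lay between 0.185 and 0.41 (limma), and their day 0 channel differences were at most 0.16 in size. All 12 had ratios with tamoxifen above those without (11.6% over all genes), which the choice by p nearly fixes.

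**Figure D3:**
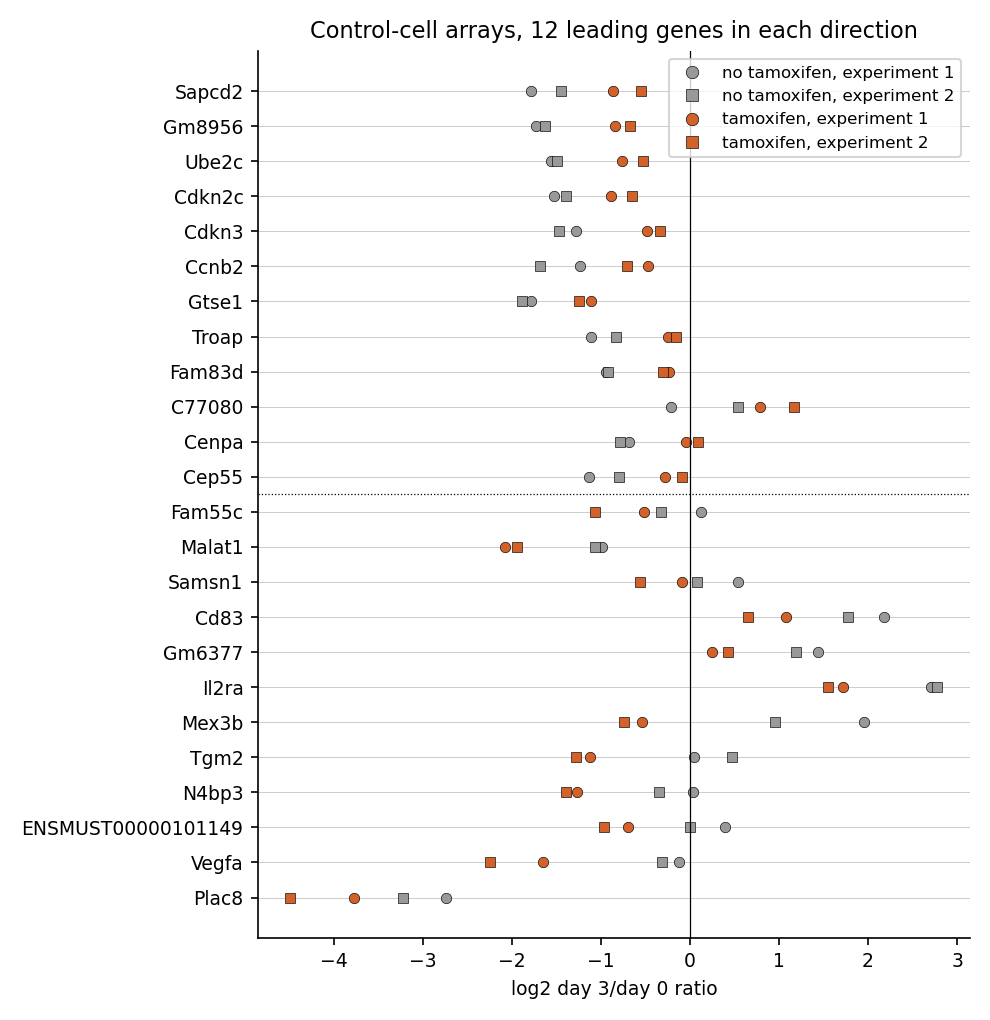
Log2 day 3/day 0 ratio on each of the 4 control arrays for the 12 genes with the smallest p that were higher with tamoxifen (above the dotted line) and the 12 that were lower (below it). Grey symbols are arrays without and orange symbols arrays with tamoxifen, circles experiment 1 and squares experiment 2; in each of the 24 genes the orange symbols lie on 1 side of the grey ones.

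Genes of S phase differed less. Over 40 measured genes the median difference was 0.20, with 0.26 and 0.13 in the experiments, and 27 were higher in both experiments (28.8% over all genes). The median ranged from 0.06 to 0.34 over the alternatives. At an unadjusted p under 0.05, 4 were higher (3.13% over all genes) and 0 lower. These were Tk1, thymidine kinase, at 0.47 ± 0.15, Mcm10 at 0.38 ± 0.11, Rrm1 and Rfc5. For Tk1 the ratios were -1.38 and -0.94 without tamoxifen and -0.83 and -0.53 with it. The 18 measured histone genes had a median of 0.04, with 0 past an unadjusted p of 0.05 in either direction.

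The DNA damage and p53 lists gave small positive medians. Of 32 genes of damage sensing and repair, 22 were higher in both experiments (28.8% over all genes), and the median was 0.17, with a range from 0.08 to 0.28 over the alternatives. At an unadjusted p under 0.05, 2 were higher (3.13% over all genes), namely Fanci at 0.57 ± 0.18 and Exo1 at 0.48 ± 0.20, both also used in replication. In the day 3 channel 5 were higher and 0 lower at that p (4.01% and 3.84% over all genes). Of 35 p53 targets, 7 were higher and 0 lower at that threshold (3.13% and 2.42% over all genes). Their median was 0.13 (experiment 1, 0.09, and experiment 2, 0.23) and ranged from 0.08 to 0.26 over the alternatives. The 7 include Ckap2 and Psrc1, which also serve in mitosis.

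Gdf15, a secreted stress cytokine, had ratios of -0.99 and -1.41 without tamoxifen and -0.34 in each experiment with it. It stood 0.86 ± 0.15 higher (limma adjusted p = 0.41). Phlda3, an inhibitor of AKT, stood 0.60 ± 0.13 higher, and Bbc3, the pro-death BCL2 family member PUMA, 0.55 ± 0.16 higher. Common p53 targets differed less. Cdkn1a, which encodes the CDK inhibitor p21, had ratios of -0.19 and -0.24 without tamoxifen and 0.18 and -0.10 with it, a difference of 0.26 with a 95% interval from -0.03 to 0.54. Mdm2, the ligase that limits p53, differed by -0.04 (95% interval -0.35 to 0.27), with opposite signs in the experiments.

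The amino acid stress genes driven by ATF4 had medians of 0.24 in experiment 1 and 0.21 in experiment 2, and 0.22 in the fit. Of 22 measured, 17 were higher in both experiments and 0 lower (28.8% and 23.5% over all genes). At an unadjusted p under 0.05, 2 were higher (3.13% over all genes). In the day 3 channel 7 were higher and 0 lower at that p (4.01% and 3.84% over all genes). Chac1, which degrades glutathione, had the highest value of all genes. Its ratios were -2.41 and -3.09 without tamoxifen and -1.06 and -0.64 with it, 1.90 ± 0.40 higher or 3.74-fold (limma adjusted p = 0.467). Asns, asparagine synthetase, stood 0.57 ± 0.20 higher. Heat shock genes, which include the HSP90 partners of the estrogen receptor domain, had a median of -0.05 over 19 genes with 0 past an unadjusted p of 0.05.

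Among the lower values, Vegfa came first by p together with Plac8. Vegfa encodes the main vascular growth factor, and its probe lies at chr17:46154387-46154446 on mm9. Its ratios were -0.13 and -0.31 without tamoxifen and -1.65 and -2.25 with it, a difference of -1.73 ± 0.17, or 3.31-fold lower (limma adjusted p = 0.165, unadjusted p = 2.98e-05). The treatments did not overlap, and a second probe gave -1.20. Of the 29 genes of the hypoxia and glycolysis list, Vegfa was the only member past an unadjusted p of 0.05, and the list's median was -0.06.

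Mex3b encodes an RNA-binding protein. Its ratios were 1.96 and 0.95 without tamoxifen and -0.54 and -0.74 with it, a difference of -2.10 ± 0.26 (limma adjusted p = 0.246). A second, dimmer Mex3b probe gave -0.71. Tgm2, tissue transglutaminase, had ratios of 0.05 and 0.47 without and -1.13 and -1.28 with tamoxifen, a difference of -1.46 ± 0.15 (limma adjusted p = 0.165), and its second probe gave -1.40. Thus both genes were near or above their day 0 level at day 3 without the drug and below it with the drug.

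Thbs1, thrombospondin 1, had the lowest value of all genes and is named after its values were seen. Its ratios were 0.13 and -0.75 without tamoxifen and -1.48 and -3.34 with it, a difference of -2.10 ± 0.40 (limma adjusted p = 0.453). Plac8, a gene of inflammatory monocytes, had ratios of -2.75 and -3.23 without and -3.77 and -4.49 with tamoxifen, -1.15 ± 0.11 apart. N4bp3 differed by -1.17 ± 0.12, and Malat1, a nuclear long non-coding RNA measured here in cytoplasmic RNA, by -0.98 ± 0.15.

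Il2ra, the alpha chain of the interleukin 2 receptor, had ratios of 2.71 and 2.78 without tamoxifen and 1.72 and 1.55 with it, a difference of -1.11 ± 0.14. Cd83, an activation marker of dendritic cells and macrophages, had ratios of 2.18 and 1.77 without and 1.08 and 0.65 with tamoxifen, also -1.11, with an SE of 0.16. Samsn1, a signalling adaptor, differed by -0.64 ± 0.09. Over the 12 leading lower genes, the adjusted p lay between 0.165 and 0.41 (limma), the ratios with tamoxifen lay below those without (9.31% over all genes), which the choice by p nearly fixes, and day 0 channel differences were at most 0.28 in size. The remaining members were Gm6377, Fam55c and ENSMUST00000101149, the last well above background on 1 of 2 day 3 arrays with tamoxifen.

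Of 38 interferon-stimulated genes, 26 were lower in both experiments (23.5% over all genes), 0 were higher in both, and the median was -0.28, with -0.16 and -0.44 in the experiments. At an unadjusted p under 0.05, 5 were lower (2.42% over all genes) and 0 higher, among them Eif2ak2, the kinase PKR, at -0.36 ± 0.10 and Ifi44 at -0.67 ± 0.25. In the day 3 channel 9 were lower and 0 higher at that p (3.84% and 4.01% over all genes). Isg15 had ratios of 0.66 and 0.22 without and 0.48 and -0.30 with tamoxifen, -0.35 ± 0.15 apart. The median ranged from -0.49 to -0.02 over the alternatives.

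Of 35 inflammatory cytokines and chemokines, 5 were lower and 0 higher at that threshold (2.42% and 3.13% over all genes), with a median of -0.13. Ccl12, a monocyte chemoattractant, differed by -1.32 ± 0.38, with -0.49 in experiment 1 and -2.15 in experiment 2. Il1b, interleukin 1 beta, differed by -0.39 in experiment 1 and -1.62 in experiment 2. Both differed more in experiment 2. Il10, a cytokine that restrains inflammation, differed by -0.35 and -0.47 in the experiments, and the chemokine Ccl8 by -0.66 and -0.77. The list median was 0.04 without the tamoxifen array of experiment 2. Of 29 immediate early genes and ERK feedback genes, 5 were lower and 0 higher (2.42% and 3.13% over all genes). Their median was -0.20, with 0.04 in experiment 1 and -0.24 in experiment 2, and ranged from -0.28 to -0.01 over the alternatives. Nr4a1, an orphan nuclear receptor induced by stimulation, differed by -0.59 ± 0.09, with -0.61 and -0.58 in the experiments, and Egr1 by -0.62 ± 0.21, with -0.99 and -0.24. Egr2, a growth factor response gene, had ratios of 1.20 and 1.07 without and 1.32 and 1.02 with tamoxifen, so that the treatments overlapped.

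**Figure D4:**
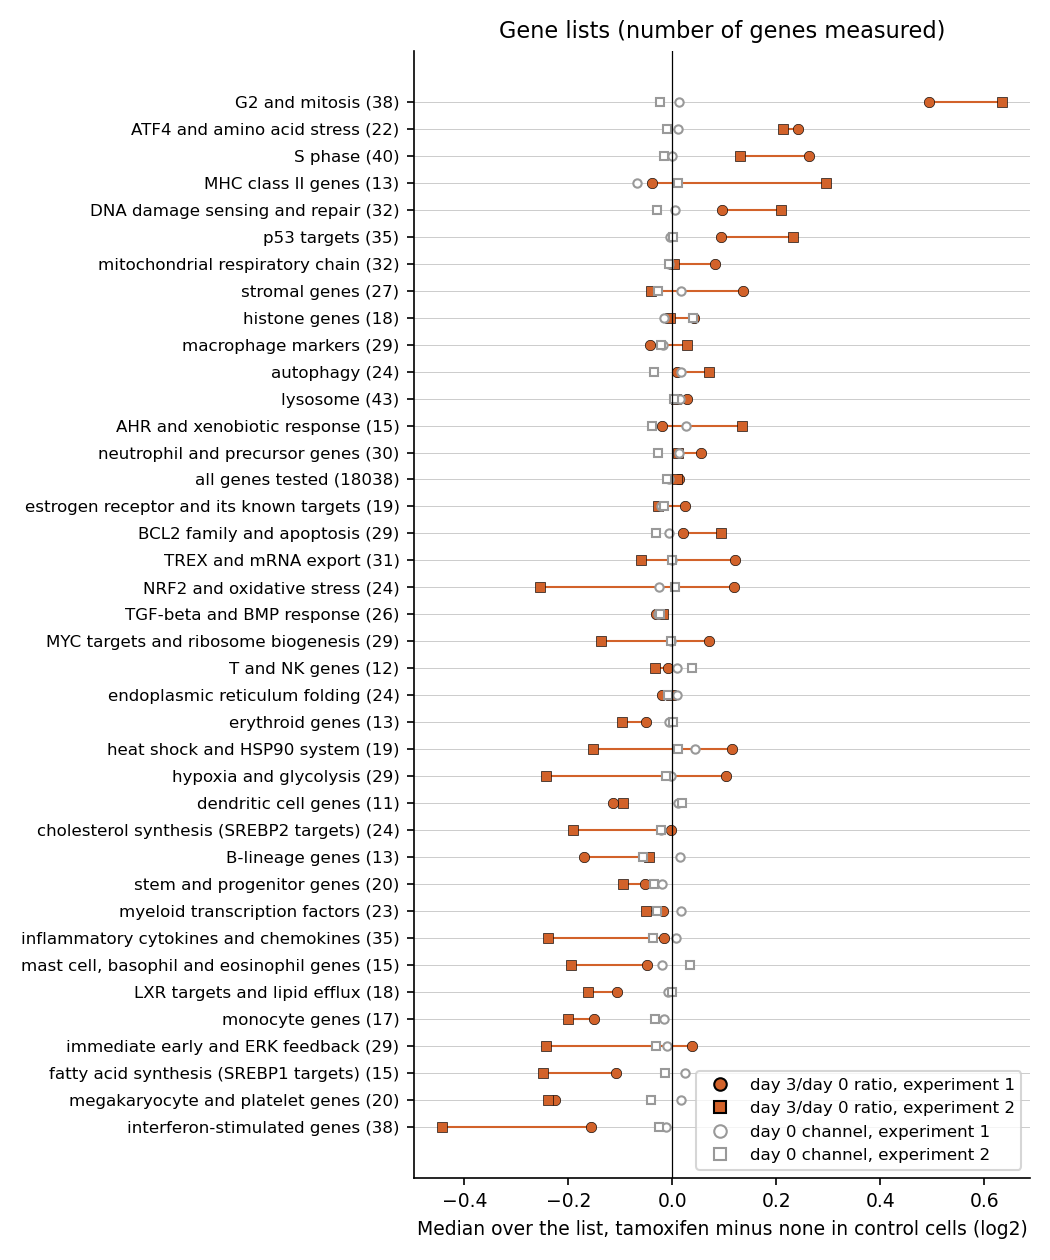
Median over each gene list of the difference between tamoxifen and no tamoxifen in control cells, on the log2 scale, in experiment 1 (circles) and experiment 2 (squares). Orange symbols are day 3/day 0 ratios and open grey symbols the shared day 0 channel, with the number of genes measured in brackets; G2 and mitosis stands at 0.49 and 0.63, all other lists lie between -0.44 and 0.30, and the day 0 channel stays near 0.

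Genes of pathways that tamoxifen is known to act on were read at an unadjusted p under 0.05. Over all genes, 3.13% were higher and 2.42% lower at that threshold. Of 19 measured genes of the estrogen receptor and its known targets, 0 were higher and 2 lower, with a median of 0.01. The 2 were Myc, with -0.33 in experiment 1 and -0.93 in experiment 2, and Areg, which was not well above background on either array with tamoxifen. Esr1, whose ligand-binding domain is the parent of the one in ERT2 Cre, had ratios of 0.83 and 1.09 without and 1.13 and 1.02 with tamoxifen, a difference of 0.11 (95% interval -0.20 to 0.42). A second, dimmer Esr1 probe gave -0.26, with -0.43 and -0.10 in the experiments. Of 15 genes of xenobiotic response, 1 was higher, Sult1a1 at 0.62 ± 0.25, and Cyp1b1 differed by 0.29 with an interval from -0.73 to 1.30. In the day 3 channel 3 of the 15 were higher and 0 lower (4.01% and 3.84% over all genes). In the ratios, the lists of oxidative stress (24 genes) and of the lysosome (43 genes) had 0 genes past that threshold in either direction. Their medians were -0.03 and 0.03.

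Of 24 cholesterol synthesis genes, 3 were lower and 0 higher at that threshold (2.42% and 3.13% over all genes). Among them were Cyp51, a demethylase of lanosterol, at -0.26 ± 0.09 and Idi1, an isomerase of the isoprenoid steps, at -0.27 ± 0.10. The list's median was -0.08 and reached 0.01 with median centring. Insig1, a sterol-responsive regulator of the pathway, differed by -0.16 (95% interval -0.41 to 0.08).

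Fatty acid synthesis genes had a median of -0.22 over 15 genes, with 4 lower and 1 higher (2.42% and 3.13% over all genes). Scd1 and Scd2, desaturases that make oleate, differed by -0.94 ± 0.25 and -0.77 ± 0.28, and the desaturase Fads2 by -0.63 ± 0.13. A second, dimmer Fads2 probe gave -0.13 ± 0.10. Among 18 targets of the sterol receptor LXR, 4 were lower and 1 higher (2.42% and 3.13% over all genes), with a median of -0.15. Abcg1, a cholesterol exporter, had ratios of 2.25 and 1.47 without and 1.58 and 0.98 with tamoxifen, -0.58 ± 0.20 apart. The related exporter Abca1 differed by -0.97 in experiment 1 and -0.09 in experiment 2. Nr1h3, which encodes LXR alpha itself, was the gene on the other side, at 0.57 ± 0.13. Thoc5's own complex and other genes of TREX and mRNA export had a median of 0.00 over 31 genes, with 0 past that threshold.

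Markers of cell types were read beside these values, since marrow cultures at day 3 hold several lineages. The 29 macrophage markers had a median of 0.03, with 1 higher and 2 lower at an unadjusted p under 0.05 (3.13% and 2.42% over all genes). Marco, a scavenger receptor, stood 0.51 ± 0.14 higher, while Siglec1, an interferon-inducible sialic acid receptor, differed by -0.97 ± 0.19 and Cd5l by -0.48 ± 0.17. A second, dimmer Siglec1 probe gave -0.31 ± 0.14. The summed day 3 intensity of the list was 2735827 and 2666282 without and 2724594 and 2695793 with tamoxifen, which overlap.

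Monocyte genes had a median of -0.17 over 17 genes, with 4 lower and 1 higher (2.42% and 3.13% over all genes). Besides Plac8 and Nr4a1, Ccr2, the receptor that guides monocytes, had ratios of -2.64 and -2.39 without and -3.33 and -2.96 with tamoxifen, -0.64 ± 0.14 apart. F13a1 differed by -0.51 ± 0.15, and a second, dimmer F13a1 probe gave -0.17 ± 0.17. Fcgr3, an Fc receptor, stood 0.40 ± 0.12 higher. The summed intensity of this list was 399014 and 352763 without and 376401 and 389101 with tamoxifen, so the groups overlapped.

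Megakaryocyte and platelet genes had a median of -0.28 over 20 genes, with a range from -0.41 to -0.11 over the alternatives. At an unadjusted p under 0.05, 5 were lower (2.42% over all genes) and 0 higher, and 15 were lower in both experiments (23.5% over all genes). Ppbp, a platelet chemokine, had ratios of -2.84 and -2.70 without and -3.60 and -3.43 with tamoxifen, -0.74 ± 0.25 apart. Clec1b differed by -0.67 ± 0.17, and further, dimmer Clec1b probes gave -0.27 ± 0.15 and -0.72 ± 0.17. The summed intensity of this list was 124554 and 111930 without and 112292 and 108430 with tamoxifen. Of the 20 genes, 1 was well above background on no day 3 control array. Neutrophil and precursor genes had 3 higher and 2 lower of 30, B-lineage genes 3 lower of 13 and erythroid genes 2 lower of 13. At that threshold 3.13% of all genes were higher and 2.42% lower. Genes of T and NK cells (12) and of stroma (27) had 0 in either direction. Summed intensity of the neutrophil list was 256649 and 285870 without and 270428 and 278519 with tamoxifen. The part of these cell types in the values above was not tested.

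The same contrast in flox cells shares no array with that in control cells, and the difference of the effects was tested in the common fit. It was called for 203 genes, or 1.13%, 106 with the higher value in control cells and 97 with the lower (limma, adjusted p under 0.05). The effects correlated across genes at 0.21. Without the tamoxifen array of either experiment in control cells the difference was called for 0 genes, without the experiment term for 22, and without an untreated control array for 275 (experiment 1) or 117 (experiment 2).

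For mitotic genes the effects had opposite signs. The list's median was 0.58 in control cells and -0.27 in flox cells (-0.40 and -0.12 in the experiments), where 8 of the 38 were called lower (4.16% over all genes) and 0 higher. The difference was called for 9 of the 38, all higher in control cells, against 0.588% of all genes. Ube2c differed between genotypes by 2.02 (limma adjusted p = 0.00903), with 0.89 in control and -1.14 in flox cells, Cdkn3 by 2.05 (limma adjusted p = 0.0186), and Ccnb2 by 1.89 (limma adjusted p = 0.0187). Of the 12 leading higher genes the difference was called for 11 (1.13% over all genes). They were chosen for a high value in control cells, which enters the difference, so that count is a description. In flox cells 8 of the 12 were called lower (4.16% over all genes).

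On the higher side, 1 leading gene was called higher in flox cells (4.84% over all genes). This was the expressed sequence C77080, at 0.82 ± 0.13 in control cells and 3.59 in flox cells, and the effects differed by -2.77 (limma adjusted p = 0.00903). The leading lower genes divided. Of the 12, 7 were also called lower in flox cells (4.16% over all genes). Among them were Mex3b at -2.08, Il2ra at -2.27, Tgm2 at -2.13, Malat1 at -1.09 and Vegfa at -0.94. For these 5 the difference between genotypes was not called, with limma adjusted p of 0.995, 0.0568, 0.205, 0.887 and 0.183. That does not show that the effects are equal.

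The difference, which again holds the value that chose the genes, was called for 4 of the 12. These were Plac8, N4bp3, Gm6377 and Cd83, all lower in control cells (0.538% over all genes). Cd83 differed most, by -4.04 (limma adjusted p = 0.00903), with -1.11 in control cells and a called 2.93 in flox cells. Mcoln3, a lysosomal cation channel, and Egr2 were called higher in flox cells at 3.65 and 2.43, beside 0.30 ± 0.17 and 0.03 ± 0.16 in control cells, and their differences were called (limma adjusted p = 0.00903 and 0.0186). Id1, an inhibitor of differentiation factors, stood at -3.51 in flox cells. In control cells its ratios were -0.21 and 4.56 without and 0.37 and 3.52 with tamoxifen, so the experiments differed far more than the treatments, and the difference was not called (limma adjusted p = 0.153). Interferon-stimulated genes had medians of -0.28 in control and -0.53 in flox cells with 0 called differences, and lysosomal genes 0.03 and 0.55, with 22 of 43 called higher in flox cells (4.84% over all genes) and 4 called differences, lower in control cells (0.538% over all genes).

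**Figure D5:**
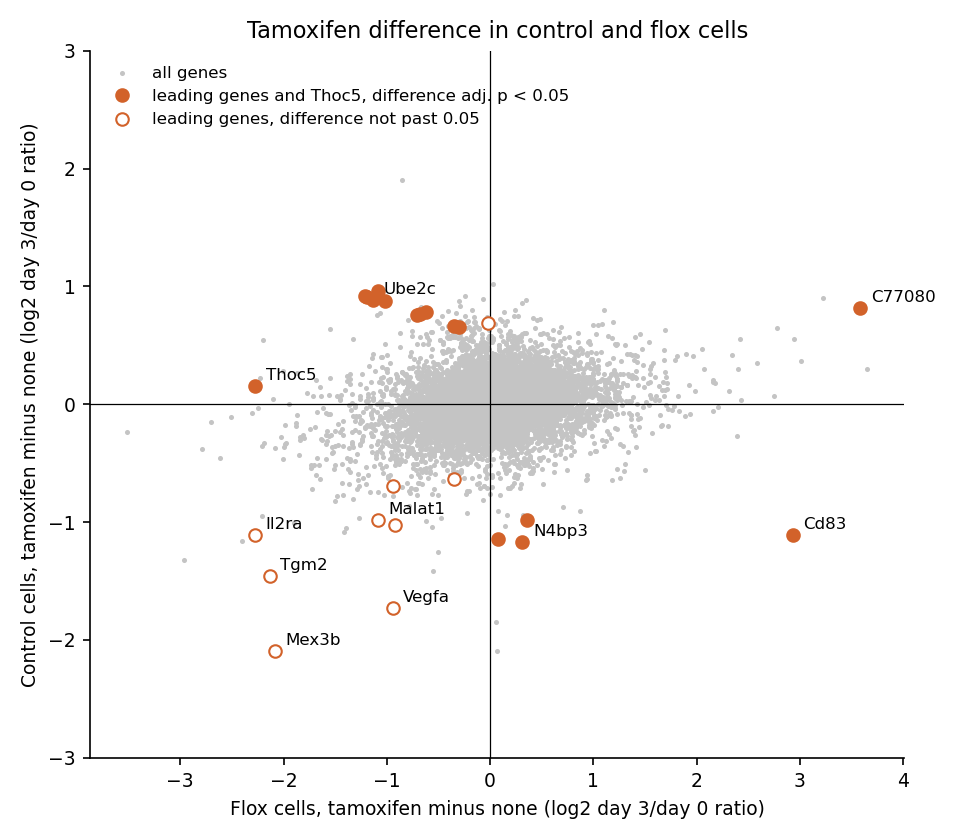
Tamoxifen minus no tamoxifen on the log2 scale of day 3/day 0 ratios in flox cells (x axis) and control cells (y axis), with all genes in grey. Circles are Thoc5 and the 24 leading genes of control cells, filled where the difference between genotypes had an adjusted p under 0.05; mitotic genes such as Ube2c (0.89 and -1.14) lie at the upper left, Cd83 (-1.11 and 2.93) at the lower right, and Mex3b, Tgm2, Il2ra, Malat1 and Vegfa at the lower left as open circles.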

How the data were processed

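RNA of 8 2-colour Agilent arrays was compared, 4 of them control cells. The deposited scanner files hold spot intensity per channel, Agilent's log10 ratio and quality flags, made by the authors with Agilent Feature Extraction 10.7.3.1, per the submitters' processing notes and the file headers (LOWESS dye normalisation). The deposited value table equals that log ratio, turned for the dye swap. Here mean and background intensities were corrected with normexp (offset 50), normalised by loess within arrays and turned to log2 day 3/day 0. Control and outlier spots and dim probes were left out, so 22455 of 39429 probes and 18041 genes were kept, of which 18038 were tested; the probe of a gene with the highest mean intensity was used. Symbols came from the deposited annotation (mm9 coordinates), updated through RefSeq. Of the 18041 genes, 60 lack a value on a control array and were fitted without it.

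limma 3.58.1 in R 4.3.3 fitted all 8 arrays with 4 groups and an experiment term, and p-values were adjusted by Benjamini-Hochberg over all genes. The experiment was kept as a block because the design text ties same-numbered arrays to an experiment. Deviations of replicate 1 correlated at 0.73 between the control groups and at 0.63 between the flox groups, which share day 0 RNA. Across genotypes they correlated at 0.31 to 0.39. The experiment term is common to both genotypes, so what they do not share stays in the residual spread. This holds for the main contrast and its 0 calls too. Channels were fitted separately as log2 intensities after Aquantile normalisation between arrays. Named genes were Thoc5, called genes with the largest change, filled to 12 in each direction with the smallest p (under 0.01) and the same sign in both experiments in the ratio and the day 3 channel, up to 4 per list by p, and fixed examples (among them Esr1, Cdkn1a, Mdm2, Insig1, Abca1, Cyp1b1, Isg15, Mcoln3, Cd83, Egr2 and Id1). As 0 genes were called, all 24 leading genes came by p. Thbs1, and genes named because they passed p 0.05 in a list, were chosen after their values were seen. Some items that the rule covers are not reported here. The members and gene lists were chosen with earlier results of these data known. The code was tested on simulated data. Alternatives covered the block, normalisation, the filter on dim probes, the probe rule, the variance prior, the arrays fitted and leaving out each control array. The number of arrays limits the precision (median SE 0.127).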

Additional observations from a re-analysis of the deposited data

Results flagged for a closer look

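The tamoxifen effect in control cells differed from that in flox cells for 20 of the 174 genes that the naming rule covers. The test was of the difference itself, at an adjusted p under 0.05 (limma, Benjamini-Hochberg), with 13 higher and 7 lower in control cells. Over all genes tested the difference was called for 203, or 1.13% (0.588% higher and 0.538% lower in control cells). Most of the 174 were chosen by a small p of the control effect. That effect enters the difference, so the count of 20 is a description. Values are control minus flox on the log2 scale. Thoc5 differed by 2.43, Gm8956 by 2.13, Sapcd2 by 2.10, Cdkn3 by 2.05, Ube2c by 2.02 and Ccnb2 by 1.89. Marco differed by 1.52, Cenpa by 1.47, Troap by 1.45, Cep55 by 1.40, Ckap2 by 1.04, Fam83d by 1.01 and Gtse1 by 0.95. On the lower side Cd83 differed by -4.04, Mcoln3 by -3.35, C77080 by -2.77, Egr2 by -2.39, N4bp3 by -1.48, Gm6377 by -1.34 and Plac8 by -1.22. Medians of the G2 and mitosis list lay on opposite sides of 0 in the genotypes, 0.84 apart (0.58 and -0.27), and the difference of the medians was not tested. The cause of these differences was not tested.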

How the results depend on the processing

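The tamoxifen effect in control cells was called for 0 genes, also with no replicate block, that is without the experiment term (0 called, 457 at an unadjusted p under 0.05). Median centring in place of loess gave 26 calls (10 higher, 16 lower), and the day 0 RNA as a random block without the experiment term gave 34 (21 higher, 13 lower). With the experiment term kept, an alternative chosen after seeing the data, that block gave 0. Leaving out each control array gave 0 to 0 calls, and 0 to 2 in the day 3 channel. The difference between control and flox effects fell from 203 genes to 22 with no replicate block, and ranged from 0 to 275 without single control arrays. Thoc5 differed by 0.16, by 0.26 with median centring and by 0.10 to 0.21 without single arrays. The median of the G2 and mitosis list, 0.58, was 0.70 with median centring and 0.46 to 0.67 without single arrays, and its count of 35 ranged from 18 to 33. The cause of these shifts was not tested. All 24 leading genes kept their sign in every alternative that gave them a value (16, or 15 for Il2ra and ENSMUST00000101149). Of them 21 passed an adjusted p of 0.05 (limma) in at least 1. The 24 were chosen by p and for 1 sign in both experiments of these same arrays. That choice nearly fixes the sign and favours passing, so both counts are descriptions. Of 38 list medians, 16 kept their sign in the 16 alternatives and 22 changed it in at least 1. Experiment, slide and dye direction are 1 split and cannot be told apart.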

Other observations

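Values outside the comparisons above were few. Myb, a factor of progenitors, was the only gene of the 20 stem and progenitor genes at an unadjusted p under 0.05 (limma), at -0.52, and Siglecf the only 1 of 15 mast cell, basophil and eosinophil genes, at -0.55. Over all genes, 2.42% were lower at that p. MHC class II genes had a median of -0.04 in experiment 1 and 0.30 in experiment 2, with 0 of 13 past that p. Respiratory chain genes had a median of 0.05 over 32 genes, also with 0.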
